A study of Mus musculus with 12 samples.

Results

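The CCN genes encode secreted proteins of the extracellular matrix. The 5 measured here, Ccn1 to Ccn5 (older symbols Cyr61, Ctgf, Nov, Wisp1 and Wisp2), were chosen from 25774 genes with a transcript in the data because Ccn2 and Ccn3 answered an siRNA against Kctd10 differently on 2 days of culture. The siRNA responses of Ccn2 and Ccn3 on each day are therefore given as descriptions with no test. Their differences between the days are tested, but they share group means with those responses. The p-values of Ccn2 and Ccn3 between the days are thus not independent of the choice. All 5 genes were among the 13076 genes that reached a TPM of 1 in at least 3 libraries, where TPM is the share of a transcript per 1000000 transcripts, corrected for transcript length.

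Poly(A) RNA was sequenced from C2C12 cells, a mouse myoblast line whose cells fuse into muscle fibres after a drop in serum. All cells came from this single line and all received an siRNA, either a non-targeting control (siControl) or a single sequence against Kctd10 (siKctd10), which encodes a substrate adaptor of CUL3 ubiquitin ligases. Undifferentiated cells (D0) were kept below confluence in 10% fetal bovine serum and harvested 48 h after siRNA. Differentiating cells (D2) were moved to 2% horse serum 24 h after siRNA and harvested 48 h later. Day, medium and time since siRNA changed together, so that their parts in a difference between D2 and D0 cannot be told apart. The 4 groups held 3 libraries each, and between 12.51 and 18.08 times 1000000 read pairs were assigned in each, estimated from coverage. Nothing in the labels says that the replicates were separate cultures, and the spread behind each p-value may be technical.

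CCN proteins are matricellular proteins: they do not build the matrix but bind its proteins, integrins, heparan sulphate proteoglycans and growth factors, and so tune adhesion and signalling. Most members carry an IGF-binding protein module, a von Willebrand factor type C module, a thrombospondin type 1 repeat and a C-terminal cystine knot, and Ccn5 lacks the last. Ccn1 and Ccn2 are textbook targets of the YAP and TEAD transcription factors and of serum signalling, Ccn2 is also a classic TGF beta target, Ccn3 is known for restraining proliferation and for binding Notch, and Ccn4 and Ccn5 were first described as Wnt-inducible genes.

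The RefSeq promoter table (GRCm38.p6) held 1 of the 5 members, Ccn1. The 250 bases before its start (chr3:145649986-145650235, minus strand) are shown because Ccn1 is a textbook TEAD target. Capitals mark CATTCC, which is the TEAD core GGAATG read on the other strand, and TATAAA.
Ccn1: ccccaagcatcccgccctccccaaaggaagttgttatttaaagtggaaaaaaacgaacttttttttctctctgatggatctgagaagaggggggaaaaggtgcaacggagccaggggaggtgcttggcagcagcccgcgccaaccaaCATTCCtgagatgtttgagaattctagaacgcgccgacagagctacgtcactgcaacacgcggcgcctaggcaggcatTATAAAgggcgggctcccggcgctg
The TEAD core lay 103 to 98 bases before the start and TATAAA 25 to 20 bases before it. Of 32851 promoters of this length, 12.6% held GGAATG on either strand and 7.6% held TATAAA on the gene's strand. These matches describe the letters and are not evidence of binding.

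The siRNAs were compared with the 3′ UTRs of the members, since the seed of an siRNA (guide bases 2 to 8) can pair with other transcripts. The letters facing the siKctd10 seed, GACGATA, were in 0 of the 5 members and in 0.852% of 11974 expressed genes with a 3′ UTR. The letters facing the siControl seed, TTTTCTG, occurred once in each of Ccn1, Ccn3, Ccn4 and Ccn5 and not in Ccn2, against 28% of the expressed genes. The 3′ UTRs compared ran from 690 bases (Ccn1) to 3747 bases (Ccn4), and length was not taken into account. A match of letters is not evidence of an effect, which was not tested.

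Kctd10 itself fell on both days in the cells that received its siRNA. It fell from 266 ± 7.32 to 23.1 ± 2.69 TPM at D0 (mean ± SD, n = 3 each; limma, Benjamini-Hochberg adjusted p = 6.8e-07), which left 8.66% of the control level. At D2 it fell from 283 ± 6.77 to 32 ± 4.58 TPM, 11.3% of the control level (limma adjusted p = 2e-06). Myod1, the master myogenic transcription factor, was expressed, at 75.2 ± 0.836 TPM in D0 siControl and 245 ± 7.73 TPM in D2 siControl cells.

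Per transcript length, the 5 CCN genes covered a wide range, and their order differed between the groups. In D0 siControl cells Ccn1 led at 150 ± 3.42 TPM, a level above 91.9% of the tested genes. Ccn4 and Ccn2 followed at 60.1 ± 8.97 and 50.6 ± 2.3 TPM, and their libraries overlapped. Ccn3 (9.14 ± 1.34 TPM) and Ccn5 (2.22 ± 0.977 TPM) were the lowest and did not overlap with each other, and Ccn5 lay above 14.5% of the tested genes.
In D0 siKctd10 cells the order was Ccn1, Ccn2, Ccn4, Ccn3 and Ccn5, with no overlap between neighbours. In D2 siControl cells Ccn3 stood first at 225 ± 2.09 TPM, above 94.8% of the tested genes, followed by Ccn1, Ccn2, Ccn4 and Ccn5 with no overlap between neighbours. In D2 siKctd10 cells the order was Ccn1, Ccn4, Ccn2, Ccn3 and Ccn5, again with no overlap between neighbours.
Ccn6 (older symbol Wisp3), the remaining family gene, lay between 0 and 1.13 TPM in the 12 libraries and shares exon bases with another gene, so it is not described further.

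**Figure D1:**
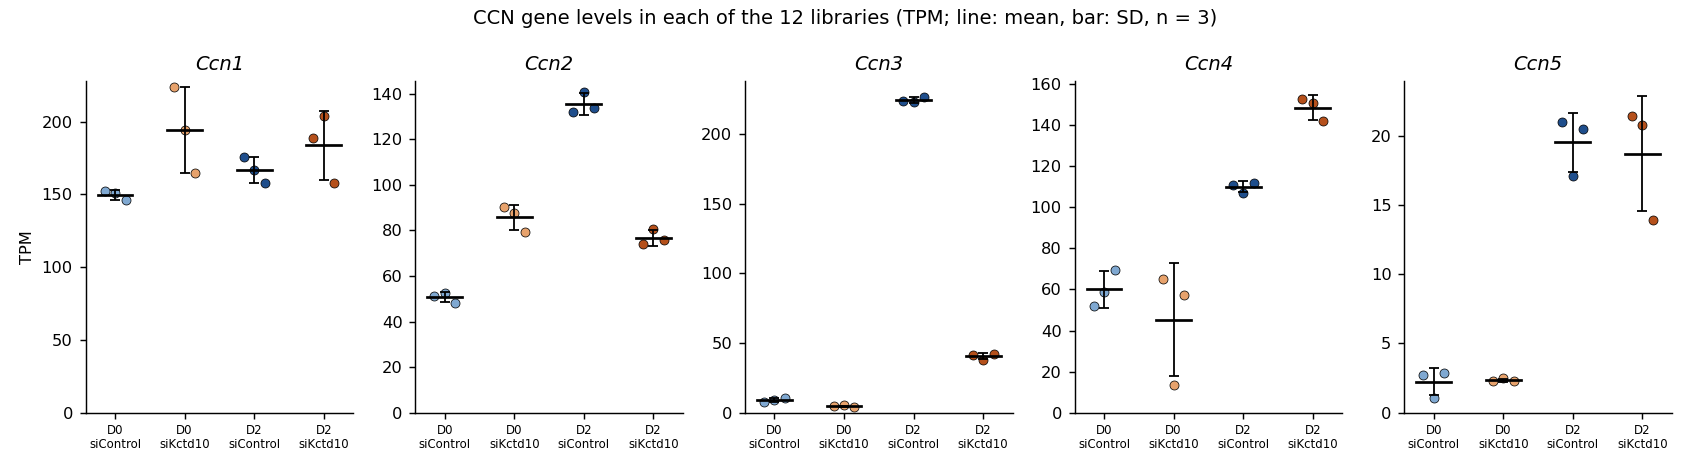
TPM of Ccn1 to Ccn5 in each of the 12 libraries (points; vertical axis in TPM from 0, a separate scale for each gene), with the group mean as a line and the SD as a bar (n = 3). Ccn2 is higher in siKctd10 at D0 (79.5 to 90.1 against 48.1 to 52.5 TPM) and lower at D2 (73.9 to 80.5 against 132 to 141 TPM), while Ccn3 is lower on both days.

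The first question was how the CCN genes moved as control cells differentiated. Of the 5 genes, 3 rose from D0 to D2 in siControl cells (Ccn2, Ccn3 and Ccn5). Of all 13076 tested genes, 35.5% passed the same test in either direction, 21.4% as higher and 14% as lower. The count of 3 includes Ccn2 and Ccn3, which chose the family. Of the other 3 genes (Ccn1, Ccn4 and Ccn5), 1 passed. All 5 genes were without overlap between the days, which 52.3% of tested genes also were. The libraries of a group are listed below in the order of their replicate numbers.

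Ccn3, known for restraining proliferation, had the steepest rise of the 5 genes. Its D0 siControl libraries held 7.73, 9.31 and 10.4 TPM and its D2 siControl libraries 224, 223 and 227 TPM. Every D2 library stood far above every D0 library, and the 3 D2 libraries were nearly equal. The ratio of the means was 24.6, and the fitted difference of log2(TPM + 1) was 4.48 (SE 0.12, 95% confidence interval 4.23 to 4.74; limma adjusted p = 1.2e-08). On this scale the change of low genes is understated.

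Ccn5, the member without the C-terminal module, was close to the lower limit of the data at D0. Its D0 siControl libraries held 2.74, 1.09 and 2.83 TPM and its D2 siControl libraries 21, 17.1 and 20.5 TPM. The days did not overlap, and the second D0 library was the lowest of all. The ratio of the means was 8.8, and the fitted difference was 2.72 (SE 0.24; limma adjusted p = 1.7e-05).

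Ccn2, the profibrotic member also known as CTGF, rose less. Its 3 D0 siControl libraries held 51.4, 52.5 and 48.1 TPM and the D2 siControl libraries 132, 141 and 134 TPM, with no overlap. The ratio of the means was 2.68, and the fitted difference was 1.40 (SE 0.08; limma adjusted p = 5.5e-07).

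Ccn1 and Ccn4 did not pass the test in control cells. Ccn1 held 152, 151 and 146 TPM at D0 and 176, 167 and 158 TPM at D2, a fitted difference of 0.15 (95% confidence interval -0.12 to 0.42; limma adjusted p = 0.38). The days did not overlap, but the gap was small beside the differences within D2. Ccn4 held 51.9, 58.9 and 69.7 TPM at D0 and 111, 107 and 112 TPM at D2. Every D2 library was above every D0 library, with a ratio of the means of 1.83 and a fitted difference of 0.87 (SE 0.46; limma adjusted p = 0.18). All 4 groups share 1 estimate of the spread, and for Ccn4 1 library of D0 siKctd10 stood far below the other 2. Without that library the fitted difference was the same, 0.87, with an SE of 0.11 and a limma adjusted p of 0.0003. Over exons 1 to 4 of Ccn4 alone, described below, the days overlapped in control cells.

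Exact permutation tests of single genes, 3 libraries against 3, cannot go below p = 0.1, and each of the 5 genes reached that value in this comparison. Muscle markers changed over the same days: the summed level of 16 such genes lay between 549 and 569 TPM in D0 siControl and between 4980 and 5110 TPM in D2 siControl libraries. Of the 16, 15 were called as higher, against 21.4% of all tested genes. In bulk RNA a change in the share of cells that express a gene and a change in the RNA per cell cannot be told apart, and the part of either in the CCN values was not tested.

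In siKctd10 cells Ccn3, Ccn4 and Ccn5 rose between the days, 3 of 5, against 36.4% of all tested genes in either direction and 23.1% as higher. Of the 3 genes that took no part in the choice (Ccn1, Ccn4 and Ccn5), 2 passed. Ccn3 went from 4.41, 5.12 and 4.29 TPM to 41.7, 37.8 and 41.8 TPM, a ratio of the means of 8.77 and a fitted difference of 2.89 (SE 0.12; limma adjusted p = 1.2e-07). Its libraries of the 2 days did not overlap. Ccn5 went from 2.29, 2.48 and 2.28 TPM to 21.4, 20.8 and 13.9 TPM, a ratio of 7.94 and a fitted difference of 2.53 (SE 0.24; limma adjusted p = 3.2e-05). The third D2 library was the lowest of its group and still above every D0 library.

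Ccn4 went from 65, 13.6 and 57.4 TPM at D0 to 153, 151 and 142 TPM at D2 in siKctd10 cells. The days did not overlap, and the second D0 library was low. The fitted difference was 1.96 (SE 0.46; limma adjusted p = 0.0079), and without that library it was 1.27 (limma adjusted p = 8.6e-05). The call was lost when only these 2 groups entered the fit (limma adjusted p = 0.056).

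Ccn2, which rose in control cells, did not pass the test in siKctd10 cells. It held 90.1, 87.8 and 79.5 TPM at D0 and 73.9, 80.5 and 75.8 TPM at D2, and the days overlapped. The fitted difference was -0.16 (95% confidence interval -0.33 to 0.01; limma adjusted p = 0.13). With median-ratio scaling it was -0.29 (adjusted p = 0.0067), with FPKM in place of TPM -0.24 (adjusted p = 0.037) and with voom on estimated read pairs -0.26 (adjusted p = 0.035), all limma fits. Ccn1 held 224, 194 and 165 TPM at D0 and 189, 204 and 158 TPM at D2, which overlapped, with a fitted difference of -0.08 (95% confidence interval -0.35 to 0.19; limma adjusted p = 0.66).

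**Figure D2:**
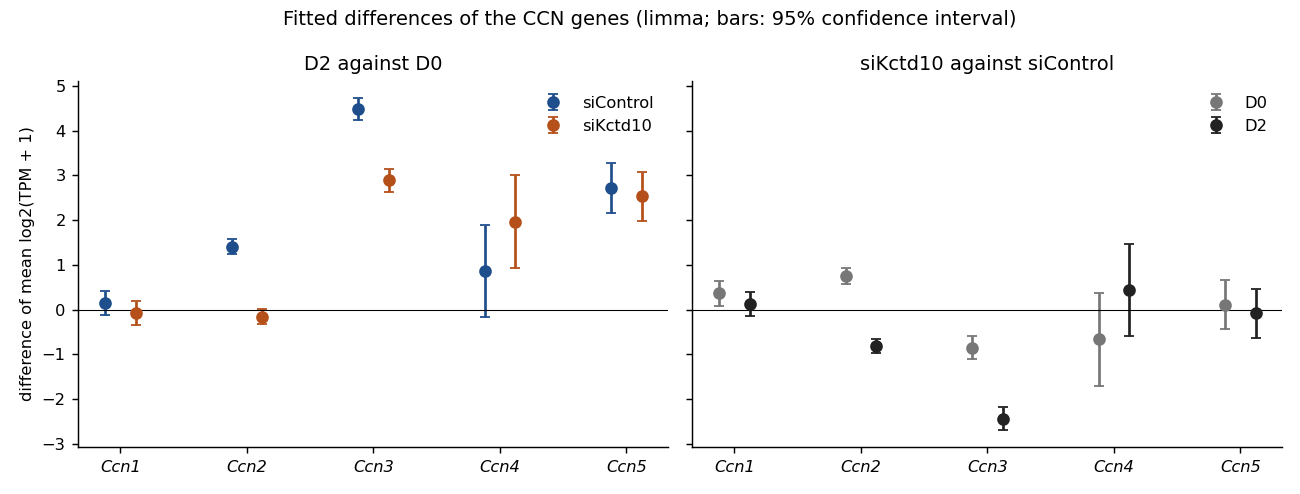
Fitted differences of mean log2(TPM + 1) for Ccn1 to Ccn5 (points, limma on 12 libraries; bars are 95% confidence intervals), D2 against D0 at the left (colours: siRNA) and siKctd10 against siControl at the right (colours: day). Ccn2 stands at 0.75 at D0 and -0.81 at D2 in the right panel, Ccn3 at -0.85 and -2.45, and the intervals of Ccn4 and Ccn5 include 0 on both days. The right-panel values of Ccn2 and Ccn3 chose the family, so their intervals are descriptions and not a test against 0.

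The next comparison set siKctd10 against siControl cells on each day, and its values for Ccn2 and Ccn3 chose the family. At D0, Ccn2 held 90.1, 87.8 and 79.5 TPM in siKctd10 against 51.4, 52.5 and 48.1 TPM in siControl libraries. Every siKctd10 library was higher, the mean was 169% of the control, and the fitted difference was 0.75 (SE 0.08). At D2 the order was the opposite: 73.9, 80.5 and 75.8 TPM in siKctd10 lay below 132, 141 and 134 TPM in siControl, 56.6% of the control mean and a fitted difference of -0.81 (SE 0.08). Ccn2 therefore stood within 73.9 to 90.1 TPM in all 6 siKctd10 libraries, between the D0 and D2 levels of the controls.

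Ccn3 was lower with siKctd10 on both days. At D0 its siKctd10 libraries held 4.41, 5.12 and 4.29 TPM against 7.73, 9.31 and 10.4 TPM in the controls, 50.4% of the control mean and a fitted difference of -0.85 (SE 0.12). At D2 they held 41.7, 37.8 and 41.8 TPM against 224, 223 and 227 TPM, 18% of the control mean and a fitted difference of -2.45 (SE 0.12). Neither day had any overlap. The difference of the 2 differences, which is the interaction of day and siRNA, was -1.60 (SE 0.16) for Ccn3 and -1.56 (SE 0.11) for Ccn2, although Ccn2 changed sign and Ccn3 did not. Both values are descriptions.

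Ccn1, Ccn4 and Ccn5 took no part in the choice. Of these 3 genes, 0 passed the limma test at D0, where 2.45% of all tested genes did, and 0 passed at D2, where 4.75% did. At an unadjusted p under 0.05 the counts were 1 at D0 (Ccn1) and 0 at D2, and voom on estimated read pairs called 0 on both days. The interaction also passed for 0 of the 3 (limma; 0 at an unadjusted p under 0.05, 0 by voom), against 0.742% of tested genes, with values of -0.23 (SE 0.17; limma adjusted p = 0.74) for Ccn1, 1.09 (SE 0.65; limma adjusted p = 0.65) for Ccn4 and -0.19 (SE 0.35; limma adjusted p = 0.91) for Ccn5.

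Ccn1, an adhesive ligand of integrins, held 224, 194 and 165 TPM in siKctd10 against 152, 151 and 146 TPM in siControl libraries at D0. All siKctd10 libraries were higher, but they spread over a wider range than the controls. The fitted difference was 0.36 (SE 0.12, 95% confidence interval 0.09 to 0.63; limma adjusted p = 0.18), as 23.2% of tested genes also had no overlap at D0. Over its last exon alone the difference was 0.48 (limma adjusted p = 0.035), so that the call depended on the part of the transcript used. At D2 the groups overlapped, and the fitted difference was 0.13 (95% confidence interval -0.14 to 0.40; limma adjusted p = 0.6).

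Ccn4, a Wnt-inducible member, differed little at D0 once its low library was set aside. The siKctd10 libraries held 65, 13.6 and 57.4 TPM against 51.9, 58.9 and 69.7 TPM in the controls, and the groups overlapped. The fitted difference was -0.66 (SE 0.46; limma adjusted p = 0.53) with the second siKctd10 library and 0.03 without it (limma adjusted p = 0.94).
At D2, Ccn4 held 153, 151 and 142 TPM in siKctd10 against 111, 107 and 112 TPM in siControl libraries. Every siKctd10 library was higher, and 28.4% of tested genes also had no overlap. The mean was 135% of the control and the fitted difference 0.43 (SE 0.46; limma adjusted p = 0.66). With only these 2 groups in the fit, which leaves out the low D0 library, the limma adjusted p was 0.047, and with all groups but without that library it was 0.066. Ccn4 was the family's only member with a higher mean in siKctd10 at D2 and no overlap. Over its exons 1 to 4 alone, described below, the siRNA groups overlapped at D2.

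Ccn5 gave the smallest differences between siRNAs. At D0 its siKctd10 libraries (2.29, 2.48 and 2.28 TPM) lay inside the range of the controls (2.74, 1.09 and 2.83 TPM). At D2 the values were 21.4, 20.8 and 13.9 TPM against 21, 17.1 and 20.5 TPM, which also overlapped. The fitted differences were 0.11 at D0 (95% confidence interval -0.44 to 0.66; limma adjusted p = 0.88) and -0.08 at D2 (95% confidence interval -0.63 to 0.46; limma adjusted p = 0.9), intervals that leave room for changes of either sign.

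Muscle markers differed between the siRNAs at D2 as well. Their summed level was 3210 to 3790 TPM in siKctd10 against 4980 to 5110 TPM in siControl libraries, and 6 of 16 were called, all lower, against 1.92% of all tested genes called as lower at D2. Myod1 fell by 0.37 on the log2 scale (limma adjusted p = 0.0091) and Myog, which drives terminal differentiation, fell by 0.75 (limma adjusted p = 0.016). At D0 the sums were 617 to 696 TPM with siKctd10 and 549 to 569 TPM with siControl. The part of these shifts in the CCN values was not tested.
Markers of other cell types were partly at 0 and partly expressed. Bglap, Ibsp, Acan, Comp and Matn1 (osteoblast and chondrocyte), Adipoq, Fabp4, Plin1, Lep and Cidec (adipocyte), Kdr, Tie1 and Emcn (endothelial) and Ptprc, Adgre1, Aif1 and Tyrobp (leukocyte) were listed at 0 in all 12 libraries, which is 5 of 14, 5 of 9, 3 of 8 and 4 of 10 listed genes. Others were expressed: group means reached 55.6 TPM for Runx2, 149 TPM for Sox9, 33.3 TPM for Phex, 17.4 TPM for Pparg, 38.9 TPM for Lpl and 44.1 TPM for Cd14. The part of these genes in the CCN values was not tested. The sums of the adipocyte list were 62.7 to 74.2 TPM in D2 siKctd10 and 27.9 to 37.3 TPM in D2 siControl libraries, where 3 of its 9 genes passed the filter and Cebpa rose (1.03; limma adjusted p = 0.0034). The leukocyte list summed to 23.2 to 47.6 TPM over all groups, the osteoblast and chondrocyte list to 96.3 to 287 TPM, and the endothelial list to at most 1.87 TPM.

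The make-up of the family followed from these values. The summed level of the 5 genes was 272 ± 5.46 TPM in D0 siControl, 333 ± 46.5 TPM in D0 siKctd10, 656 ± 6.1 TPM in D2 siControl and 468 ± 32.8 TPM in D2 siKctd10 cells. Ccn1 made up 55.1 ± 2.29% of the sum in D0 siControl cells and 25.4 ± 1.13% in D2 siControl cells. Ccn3 made up 3.35 ± 0.425% and 34.2 ± 0.538%, so that the leading member was Ccn1 at D0 and Ccn3 at D2. With siKctd10 the D2 family was led by Ccn1 (39.1 ± 2.37%) and Ccn4 (31.8 ± 1.21%), while Ccn3 made up 8.67 ± 1.02%. The D0 siKctd10 sum includes the low Ccn4 library, and its 3 libraries ran from 303 to 386 TPM.

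**Figure D3:**
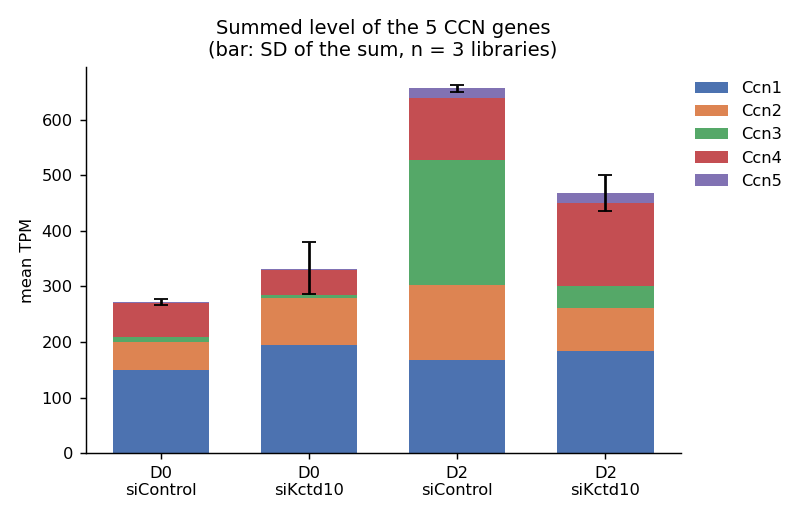
Mean TPM of the 5 CCN genes stacked for each group (vertical axis from 0; n = 3 libraries; black bars are the SD of the sum). The D2 siControl bar is the tallest at 656 TPM, with Ccn3 at 225 TPM of it, against 40.4 TPM of Ccn3 in the D2 siKctd10 bar of 468 TPM.

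The deposited coverage per exon was used to see whether each difference ran along the whole transcript. Values are exon coverages on the TPM scale, all members have 5 exons, and an exact 0 in these files may be a failed estimate. The 5 genes lie at chr3:145646971-145649985 (Ccn1, minus strand), chr10:24595442-24598682 (Ccn2), chr15:54745928-54753761 (Ccn3), chr15:66891393-66923199 (Ccn4) and chr2:163820834-163833147 (Ccn5, the last 4 on the plus strand) of mm10. Each was measured through a single transcript, since the other 2 transcripts of Ccn4 were at 0 in every library.

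The group means of Ccn2 had the same direction in every exon. Single libraries of the siRNAs overlapped in exons 1 and 2 at D0 and in exons 2 and 3 at D2. The D0 siKctd10 means were 171, 205, 157, 208 and 166% of the control from exon 1 to exon 5, and the D2 siKctd10 means were 63.5, 71.4, 65.5, 45.2 and 55.2%. In control cells D2 exceeded D0 by ratios of 2.05 to 2.99. The transcript of Ccn2 shares exon bases with 1 other transcript.

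The group means of Ccn3 were lower in exons 2 to 5 as well, at 16.8, 27.5, 28.6 and 17.4% of the D2 control and at 66.2, 47.9, 50.5 and 48.5% of the D0 control. At D2 the libraries of the siRNAs did not overlap in these exons. At D0 they overlapped in exons 2, 3 and 4 and were apart only in exon 5. Its exon 5, the longest at 1553 bases, carried 274 ± 3.78 in D2 siControl and 47.7 ± 4.68 in D2 siKctd10 libraries. Exon 1, of 110 bases, behaved unlike the rest: it was listed at 0 in all 3 D2 siKctd10 libraries against 133, 109 and 89 in the D2 siControl libraries. At D0 it was listed at 0 in 2 of 3 libraries of each siRNA, with 6.36 and 4.1 in the others. No fold is given for it because a 0 may not be an absence.

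Ccn4 had estimates that jumped between libraries of 1 group. The low D0 siKctd10 library was low only in exon 5, of 4045 bases, which held 0.00633 there against 64 and 57 in the other 2 libraries. Its exons 1 to 4 held 14.8, 95.5, 52.7 and 125, inside or next to the range of the other 2 libraries. Over exons 1 to 4 the 3 libraries stood at 69.4, 69.9 and 59.1, with no low one. Exon 4 was also at or near 0 in some libraries of other groups, with ranges of 0 to 140 in D0 siControl, 0.534 to 286 in D2 siControl and 0.0503 to 257 in D2 siKctd10. Over exons 1 to 4, D0 siControl held 22.8, 59.3 and 69.8, with 1 low library, and D2 siControl held 130, 54.7 and 59.1, which overlapped. D2 siKctd10 held 134, 97.5 and 137 there and overlapped with D2 siControl. Over exons 1 to 4 alone the fitted difference between the siRNAs at D0 was 0.52 (limma adjusted p = 0.6), which includes the low D0 siControl library. The D2 against D0 difference in siKctd10 was 0.87 (limma adjusted p = 0.14), so that the rise of Ccn4 with siKctd10 was called or not according to the part of the transcript used.
For Ccn5, exon 2 of 93 bases was listed at 0 in all 12 libraries, and exon 5 rose from 3.94 ± 1.64 to 31.8 ± 3.43 between the days in control cells. Over exons 1 to 4 Ccn5 held 0, 0 and 0.977 in D0 siControl and 0, 1.32 and 0.142 in D0 siKctd10 libraries. D2 siControl held 6.16, 5.1 and 6.79 there. The D0 level of Ccn5, and with it the ratio between the days, therefore rested mostly on exon 5.

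**Figure D4:**
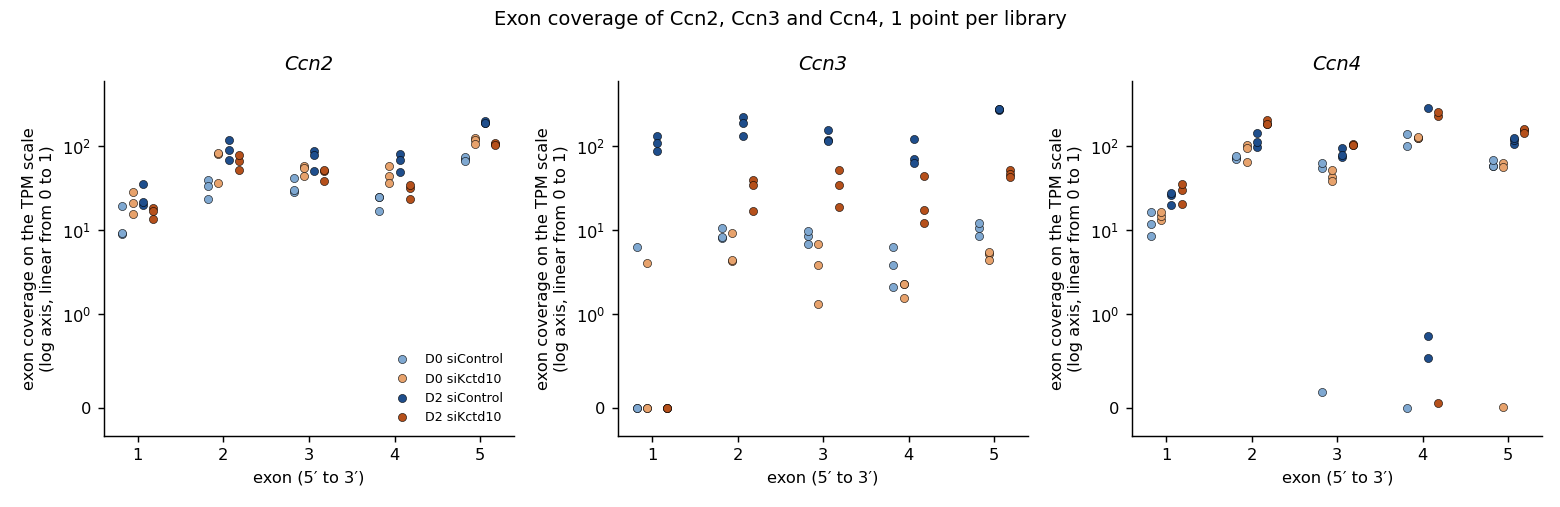
Coverage of each exon of Ccn2, Ccn3 and Ccn4 on the TPM scale (1 point per library; log axis, linear from 0 to 1) from exon 1 at the 5′ end to exon 5. Ccn3 exon 1 is at 0 in all 3 D2 siKctd10 libraries, and Ccn4 exon 5 is near 0 in 1 D0 siKctd10 library (0.00633) while its other exons are not.

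The likeness of single genes to each member was described by Pearson's r of log2(TPM + 1) over the 12 libraries, among genes with 1 transcript of their own. These points fall into 4 groups and share libraries, so r mostly restates the group means and carries no p. Closest to Ccn3 were Reep1, an endoplasmic reticulum shaping protein (0.987), Mex3b, an RNA-binding protein (0.984), and Cxcl13, a B cell chemokine (0.983). Cxcl13 held 4.49 ± 1.3, 2.62 ± 0.529, 62.5 ± 3.83 and 11.7 ± 1.78 TPM in D0 siControl, D0 siKctd10, D2 siControl and D2 siKctd10, the same order as Ccn3.
Closest to Ccn2 were Mfsd2a, a lysolipid transporter (0.928), Wfs1, an endoplasmic reticulum membrane protein (0.884), and Cdc42bpg, a kinase acting on myosin (0.876). Mfsd2a held 13.6 ± 1.38, 23.1 ± 3.96, 32 ± 0.296 and 25.2 ± 1.62 TPM in the same group order, higher with siKctd10 at D0 and lower at D2. Closest to Ccn1 were the lipoprotein receptor relative Lrp10 (0.92), the smooth muscle myosin light chain Myl9 (0.815) and the carbonyl reductase Cbr2 (0.808). Ccn4 was closest to Larp6, which binds collagen mRNAs (0.879). Genes alike to Ccn5 included Clic4, a chloride intracellular channel protein (0.988), and Heca (0.986).
Between members the highest r was 0.88 for Ccn3 and Ccn5 and the lowest -0.12 for Ccn1 and Ccn3, while Ccn2 and Ccn3 had 0.72.

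The lists of pathway genes below were chosen with earlier results of these data known, and nothing is supported with them. Ccn2 and Ccn3 were left out of every list. For the same test over all genes, 1.48% were higher and 0.964% lower with siKctd10 at D0, and 2.83% higher and 1.92% lower at D2. From D0 to D2 in control cells 21.4% of all genes were called as higher and 14% as lower. Among 23 receptors and binding partners of CCN proteins, 17 were measured. At D0, 2 were called, both higher with siKctd10: the endocytic receptors Lrp1 (125 ± 4.79 to 227 ± 19.7 TPM; limma adjusted p = 0.0043) and Igf2r (10.6 ± 0.647 to 17.8 ± 1.67 TPM; limma adjusted p = 0.022). At D2, 4 were higher and 2 lower. Bmp4, a growth factor bound by CCN proteins, rose from 11 ± 0.697 to 72.5 ± 3 TPM (limma adjusted p = 0.018), and the Wnt co-receptor Lrp6 rose from 49.4 ± 18.1 to 103 ± 5.13 TPM (limma adjusted p = 0.048). Laminin-binding integrin subunit Itga6 fell by 0.73 (limma adjusted p = 0.014), and Dcn, a proteoglycan, fell from 566 ± 15.9 to 353 ± 30.3 TPM (limma adjusted p = 0.0075).
From D0 to D2 in control cells 6 of the 17 rose and 2 fell. Dcn rose by 5.19 (limma adjusted p = 7.6e-09), fibronectin, Fn1, rose by 1.51 (limma adjusted p = 7.4e-06), and the syndecan Sdc4 fell by 0.41 (limma adjusted p = 0.0016). Itgb1, the integrin subunit shared by several CCN receptors, spread widely within groups (472 to 908 TPM in D0 siControl) and was not called (limma adjusted p = 0.79 at D0 and 0.97 at D2 for siKctd10). Notch1 rose in control cells (0.72; limma adjusted p = 0.00059) and was not called between siRNAs (limma adjusted p = 0.44 at D0 and 0.1 at D2).

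Genes of the YAP and TEAD pathway and its targets, of which 31 of 33 were measured, were more often higher than lower with siKctd10. Ccn1 and Ccn2 are not among these 31. At D0, 7 were called, all higher, with a list median of 0.51 against 0.05 for all genes. At D2, 10 were higher and 1 lower, with a median of 0.34 against 0.08. Yap1 rose by 0.34 at D0 (limma adjusted p = 0.039) and by 0.29 at D2 (limma adjusted p = 0.045). Ankrd1, a cardiac ankyrin repeat protein and a standard target, rose from 470 ± 13.3 to 959 ± 214 TPM at D0 (limma adjusted p = 0.013) and by 0.71 at D2 (limma adjusted p = 0.033), when Ccn2 was lower with siKctd10. Amotl2 rose by 0.94 at D2 (limma adjusted p = 0.025), and Nt5e fell by 0.64 (limma adjusted p = 0.015). Wwtr1, Tead1 and Tead4 were not called at D0 (limma adjusted p = 0.69, 0.45 and 0.24) or at D2 (limma adjusted p = 0.59, 0.88 and 0.63). Wwtr1 spread widely within the controls, from 8.75 to 46.9 TPM at D0 and from 12.5 to 65.2 TPM at D2. Of the 31, 0 passed the test of the interaction (limma; 1 higher and 2 lower at an unadjusted p under 0.05, 0 by voom).

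Of 20 SRF and MRTF genes, 5 were called at D0 and 6 at D2, all higher with siKctd10, with medians of 0.16 and 0.26. The actin Acta2 rose from 600 ± 52.3 to 1560 ± 139 TPM at D0 (limma adjusted p = 0.00069) and from 1310 ± 154 to 2480 ± 401 TPM at D2 (limma adjusted p = 0.0045). Tagln, an actin-bundling protein, rose by 1.40 at D0 (limma adjusted p = 0.00027), and Myl9 rose by 0.82 at D2 (limma adjusted p = 0.0038).

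Among TGF beta and SMAD genes, 25 of 26 were measured. At D0, 1 was called, the corepressor Ski (0.33; limma adjusted p = 0.04), and at D2 2 were higher, the signal transducer Smad3 (109 ± 7.16 to 155 ± 8.31 TPM; limma adjusted p = 0.009) and Ski (0.30; limma adjusted p = 0.04). The list's median was 0.00 at D0 and 0.20 at D2. In control cells 10 rose and 5 fell with differentiation, led by Pmepa1 (1.71; limma adjusted p = 2e-06) among the rises and the BMP target Id1 (-1.35; limma adjusted p = 6.2e-05) among the falls.

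Wnt and beta-catenin genes, 22 of 25 measured, had 3 calls at D0, all lower with siKctd10, among them the ligand Wnt10b (-0.88; limma adjusted p = 0.0096) and the transcription factor Tcf7 (-0.86; limma adjusted p = 0.0041). At D2, 4 were higher and 1 lower: Sfrp2, a secreted Wnt modulator, rose from 32.9 ± 2.6 to 86.8 ± 7.56 TPM (limma adjusted p = 0.00022), and the inhibitor Dkk2 fell from 51 ± 1.11 to 20 ± 2.56 TPM (limma adjusted p = 0.00022). The list's median was -0.01 at D0 and 0.27 at D2.
Of 12 measured Notch genes, 9 rose with differentiation in control cells, with a median of 0.84 against 0.09 for all genes, and Heyl, a Notch target, rose by 3.76 (limma adjusted p = 1.6e-07). With siKctd10, 0 of the 12 were called at D0 (limma; 1 at an unadjusted p under 0.05, 0 by voom), and at D2 1 of the 12 was called, the target Hey1, lower by a log2 difference of -0.94 (limma adjusted p = 0.013). At D2, 5 of the 12 were lower and 0 higher at an unadjusted p under 0.05, and voom on estimated read pairs called 4, all lower.

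Other matricellular proteins gave a comparison for the CCN family, with 12 of 19 measured. With siKctd10, 2 were called at D0 and 3 at D2, all higher. Thrombospondin 1, Thbs1, rose from 389 ± 119 to 1330 ± 316 TPM at D0 (limma adjusted p = 0.014) and from 827 ± 33.1 to 2390 ± 956 TPM at D2 (limma adjusted p = 0.019). Fibulin 2, Fbln2, rose by 0.57 at D0 (limma adjusted p = 0.023), and tenascin C, Tnc, rose by 0.65 at D2 (limma adjusted p = 0.014). From D0 to D2 in control cells 5 rose, among them periostin, Postn (0.607 ± 0.132 to 22.2 ± 2.51 TPM; limma adjusted p = 6.1e-08), and fibulin 5, Fbln5 (1.72; limma adjusted p = 0.00079). The named genes with several transcripts are less certain, since estimates can shift between transcripts. They include Lrp1, Bmp4, Lrp6, Itga6, Dcn, Fn1, Itgb1, Amotl2, Nt5e, Wnt10b, Tcf7, Thbs1, Fbln2, Tnc, Postn and Fbln5. Yap1, Wwtr1, Tead1, Tead4, Notch1, Runx2, Sox9, Pparg, Lpl and Acta1 also have several.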

How the data were processed

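Poly(A) RNA of 12 C2C12 libraries was analysed, grouped by the sample titles. The authors estimated transcript abundance with StringTie; version 1.3.3b stands in the file headers and 1.1.3 in the submitters' processing notes, which also name HISAT, SAMtools, DESeq2 and mm10. Each deposited transcript carries coverage (per base, also per exon), FPKM and TPM, per the file headers, and no read counts were used, so no count test was run. TPM summed to 1000000 in every library.

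The 63759 transcripts were matched to GENCODE vM21 genes (GRCm38, which is mm10) where all introns agreed (42608) or, failing that, where exon bases overlapped by 50% or more (13473). The other 7678 held 3.82 to 4.63% of TPM. Gene TPM was the sum over transcripts. The 13076 genes that reached a TPM of 1 in 3 or more libraries were fitted as log2(TPM + 1) with limma 3.58.1 (R 4.3.3; 4 group means, trend, robust, 8 residual degrees of freedom), two-sided, Benjamini-Hochberg over all 13076 genes, threshold 0.05. Exon coverage was put on the TPM scale of its library. Read pairs were estimated from coverage and length at 202 bases per pair; counting intervals per gene need counts and are not given. The procedure was tested on simulated data.

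The members and lists were chosen with earlier results of these data known. The siRNA contrasts and interaction of Ccn2 and Ccn3 got no p because they chose the family. Named were all members, the 3 most alike genes per member (1 transcript with no shared exon base, mean TPM of at least 5 in the highest group), 11 regulators and, per list and contrast, up to 2 rises and 2 falls past the threshold with no overlap and mean TPM of at least 5. The text prints some of these, and some genes are not reported here. Alternatives were 2 pseudocounts, 2 filters, 2 scalings, FPKM, intron matches only, voom, fits of 2 groups, a replicate block, leaving out each library and, chosen after seeing the data, exons 1 to 4 or exon 5 alone. Promoter sequence is from RefSeq.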

Additional observations from a re-analysis of the deposited data

Results flagged for a closer look

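Differences between the 2 days in the siRNA effect are given here as the effect at D2 minus the effect at D0, on the log2 scale. For Ccn2 this was -1.56 (SE 0.11): every siKctd10 library lay above every control library at D0 and below every control library at D2. It was not tested, because it chose the family, and neither was the -1.60 (SE 0.16) of Ccn3, which was lower on both days.

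Of the list genes named by the rule, Sfrp2 passed the interaction test at 1.63 (SE 0.16; limma adjusted p = 0.0035), from -0.26 at D0 to 1.37 at D2. Acta1, skeletal muscle actin, passed it at -1.53 (SE 0.22; limma adjusted p = 0.016), from 87.4 ± 14.6 against 169 ± 31.2 TPM at D0 to 1380 ± 146 against 909 ± 52.6 TPM at D2 (siControl against siKctd10, mean ± SD, n = 3), and it has 2 transcripts.

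Genes named for their likeness to Ccn2 or Ccn3 also passed it, but they were picked on the same libraries for following those genes, so this is not independent evidence. The values were -1.05 for Mfsd2a (SE 0.19; limma adjusted p = 0.043) and -0.75 for Wfs1 (SE 0.13; limma adjusted p = 0.032), both alike to Ccn2. They were -1.75 for Cxcl13 (SE 0.27; limma adjusted p = 0.019) and -1.14 for Reep1 (SE 0.16; limma adjusted p = 0.012), both alike to Ccn3.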

How the results depend on the processing

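Over the CCN results, 587 values under an alternative counted as unchanged and 15 moved by more than 1 SD. A further 8 changed sign, 7 newly passed the threshold and 3 no longer passed it. Unchanged meant the same direction and side of the threshold. For the siRNA contrasts and interaction of Ccn2 and Ccn3, which have no p, it meant the same direction and a move within 1 SD. Leaving out a library of another group, or fitting only the 2 groups, keeps the estimate of a siRNA contrast. Part of the 587 could therefore not change, and the total is not a measure of robustness. With a pseudocount of 5 the siRNA difference of Ccn3 was -0.55 at D0 and -2.34 at D2, and the interactions were -1.49 (Ccn2) and -1.78 (Ccn3). Median-ratio scaling gave -0.90 (Ccn2) and -2.54 (Ccn3) at D2, and -0.29 for Ccn2 between the days in siKctd10, now past the threshold. FPKM gave 0.62 at D0, -0.87 at D2 and -0.24 between the days in siKctd10 for Ccn2, and -1.75 for the interaction of Ccn3. Voom gave -1.06 for Ccn3 at D0, -0.90 and -2.56 for Ccn2 and Ccn3 at D2, and -0.26 for Ccn2 between the days in siKctd10. Fits of 2 groups gave Ccn4 0.43 between siRNAs at D2 and 0.87 between the days in siControl, both past the threshold, and 1.96 in siKctd10, no longer past it; the estimates are those of the fit of all groups and the spread differs. Over exons 1 to 4, siKctd10 gave 0.85 at D0 and -0.67 at D2 for Ccn2, -2.31 at D2 for Ccn3 and 0.52 at D0 for Ccn4, a change of sign, and Ccn4 between the days in siKctd10 was 0.87, no longer past the threshold. The 0.52 includes a D0 siControl library of Ccn4 that was low over these exons. Over exon 5, Ccn1 at D0 was 0.48, past the threshold, and Ccn4 between the days in siKctd10 was 3.32, not past it (adjusted p = 0.07). Where no cause is given, the cause was not tested.

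Leaving out 1 library at a time changed the sign of small, uncalled differences. The siRNA difference of Ccn5 ranged from -0.18 (without the second D0 siControl library) to 0.26 at D0 and from -0.19 to 0.11 (without the third D2 siKctd10 library) at D2, and its interaction from -0.34 to 0.09 (without the second D0 siControl library), at 0.00 without the third D2 siKctd10 library. Ccn1 between the days in siKctd10 ranged from -0.19 to 0.03, the latter without the first D0 or the third D2 siKctd10 library. Ccn4 at D0 ranged from -1.06 to 0.03 (without the second siKctd10 library), and between the days it ranged from 0.77 to 0.98 in siControl and from 1.27 to 2.36 in siKctd10. The siRNA differences ranged from 0.71 to 0.80 and from -0.85 to -0.79 for Ccn2 at D0 and D2, and from -0.95 to -0.76 and from -2.47 to -2.40 for Ccn3.

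Libraries that share a replicate number did not deviate together in every pair (correlations of -0.02 to 0.20), so the numbers were not taken as pairs. With a replicate block no call of a CCN gene changed: Ccn4 between the days in siKctd10 kept 1.96 (limma adjusted p = 0.011) and Ccn1 at D0 0.36 (limma adjusted p = 0.094). Over all genes the block gave 319 calls at D0 (main 320), 546 at D2 (621) and 42 for the interaction (97). The interaction gave 62 calls with a pseudocount of 0.1, 167 with 5 and 52 to 82 with 1 library left out. Fits of 2 groups called 72 genes at D0 and 252 at D2, and leaving out 1 library gave 118 to 306 and 315 to 682. The median of all genes between the days in siKctd10 was 0.12 and moved to 0.00 with median-ratio scaling. No counts are given, so depth could not be set beside single values, and Ccn5 and Ccn3 at D0 lie near the lower end of the data.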
